A study of Mus musculus with 2 samples.

Results

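The genes described here are 46 genes of DNA replication and cell division. They were chosen by name, 24 of them active from G1 to S phase and in replication and 22 of them active from G2 phase through mitosis, and each matched 1 row by gene symbol among the 24340 rows of the deposited gene table. RNA-seq was performed on trunk tissue of E8.5 mouse embryos, with 1 wild-type sample and 1 Aldh1a2-/- sample, the homozygous knockout of Aldh1a2 (Raldh2) obtained from matings of heterozygous parents. The trunk was separated from the head, anterior hindbrain, pharyngeal region, heart and the caudal zone behind the newest somite. The methods of the study describe 2 trunks per genotype, whereas the labels list 1 sample each, so that no value here has a replicate check, no test was run and no p-value is given. The strain is not given in the sources used here, and both genotypes came from animals on normal chow without treatment.

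A cell that is about to divide first licenses its replication origins in G1, when the origin recognition complex, Cdc6 and Cdt1 load the Mcm2 to Mcm7 helicase onto DNA. In S phase the helicase is activated by Cdc45 and the GINS complex, and DNA is copied by polymerases held on the template by the Pcna clamp. In G2 and M phases cyclin B with Cdk1 drives the cell into mitosis, spindle motors and kinetochore proteins move the chromosomes, and the anaphase-promoting complex ends mitosis by marking cyclins and securin for destruction. The transcripts of both sets come and go with the cell cycle, under E2F factors for many G1/S genes and under MuvB complexes with B-Myb and FoxM1 for many G2/M genes, so their level in a tissue reads, in part, how many cells are cycling. The E8.5 trunk, where somites and the spinal cord are laid down, is a rapidly growing tissue. In a bulk sample fewer cells of a type and less RNA per cell cannot be told apart.

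Values are FPKM, fragments scaled to the length of the transcript and the depth of the library, so that levels can be compared between genes. Differences are log2 ratios of FPKM with Aldh1a2-/- over wild type and no pseudocount. They were taken for the 9506 genes that exceeded 0.5 FPKM in each sample, which are called measured, and gene coordinates are those of GENCODE M21 on mm10. A gene is called lower or higher where this ratio is below -0.85 or above 0.85, the cutoffs of the study. All 46 genes were measured. The depth was estimated from genes with 1 annotated transcript whose FPKM times length in kilobases lay between 0.03 and 0.04, read as 1 fragment. This gave about 28100000 fragments for the wild-type sample (18 genes) and 29100000 for the Aldh1a2-/- sample (13 genes). That window bounds the estimate in advance, so these depths are not an independent measure. Fragments per member were computed from them and the shortest coding transcript of each gene. The fewest estimated were about 776 in wild type (Cdc6) and 286 in Aldh1a2-/- (Orc1). Counting error alone on the log2 ratio of a member then ran from 0.0097 to 0.0995, and it leaves out all variation between embryos and libraries. Aldh1a2 itself, the gene that was knocked out and that makes retinoic acid (RA) in trunk mesoderm, stood at 128 FPKM in the wild-type trunk against 11.7 FPKM in Aldh1a2-/-, a log2 ratio of -3.45.

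The 2 samples also differed in their markers of cell types, whose levels are summed here over all markers of a list found in the table. Of 10 yolk sac visceral endoderm markers, 9 were measured and all 9 were higher, with summed levels of 451 FPKM (wild type) and 6731 FPKM (Aldh1a2-/-), and Amn was listed at 0 in wild type. Of 9 primitive red blood cell markers, 8 were in the table and 5 were measured, all 5 higher, with summed levels of 299 and 5851 FPKM, and Gata1 was listed at 0 in wild type. Of 8 somite and trunk mesoderm markers, Aldh1a2 among them, 6 were measured and all 6 were lower, with summed levels of 454 and 60.9 FPKM. Of 8 neural tube markers, 6 were measured, 2 lower and 1 higher, with summed levels of 78.3 and 70.8 FPKM. The neural tube markers that were not measured, Olig2 (6.19 and 0 FPKM) and Nkx6-1 (3.08 and 0 FPKM), both had less in Aldh1a2-/-. Of 9 heart muscle markers and 8 head and brain markers, 2 each were measured, both higher for heart and 1 lower and 1 higher for head and brain. Heart markers that were not measured went both ways. Myl4 (7.15 and 0 FPKM) and Actc1 (6.13 and 0.053 FPKM) had less in Aldh1a2-/-, and Tnni1 (0.436 and 13.4 FPKM) and Myl7 (0 and 2.36 FPKM) had more. Most of the head and brain sum was Fgf15, at 14.3 and 43.6 FPKM. The summed levels were 25.7 and 53.5 FPKM for heart and 21.3 and 45.6 FPKM for head and brain, with 2 and 5 markers listed at 0 in both samples, Nppa and Nkx2-5 in the heart list and Otx2, Six3, En1 and En2 among those in the other. The part of these differences in the results on replication and mitosis genes was not tested.

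Of the G1/S genes 18 of 24 had a log2 ratio below 0, most of them inside the cutoffs, and most G2/M genes were near their wild-type level. The median log2 ratio of the 24 G1/S and replication genes was -0.63, with 8 of them lower (Orc1, Gins1, Gins2, Pcna, Mcm7, Mcm10, Ccnd2 and Ccne2) and 1 higher (Ccnd3). The median of the 22 G2/M genes was -0.07, with 1 lower (Bub1) and none higher, and on the TPM scale, where each sample's FPKM sum to the same total, this median turned to 0.09. Over all 46 genes the median was -0.22, with 9 lower and 1 higher. Of all measured genes, 22.0% were lower and 23.6% were higher, together 45.6%, and their median was 0.02. Past either cutoff were thus 37.5% of the G1/S genes and 4.55% of the G2/M genes beside that 45.6%, and among the G1/S genes 8 lower of 24 stood beside a background of 22.0%.

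The scaling of the samples bears on these counts. On the TPM scale, which shifted the median of all measured genes by 0.16, the split of the G1/S genes was 4 lower and 2 higher, and their median was -0.48. Measured from the median of all genes, which no scaling affects, the median of the G1/S genes was -0.65 and that of the G2/M genes -0.09. The number of genes below 0 on the log2 scale was 18 of 24 for G1/S and 13 of 22 for G2/M as deposited, and 17 of 24 and 7 of 22 on the TPM scale. Across all 11 alternative settings Orc1, Gins1, Gins2, Pcna, Ccnd3 and Bub1 stayed past the cutoff wherever the setting gave a value. Several of these settings, the other FPKM floors and the restriction to rows of status OK, can only drop a gene and cannot change its ratio. Orc1 was dropped at a floor of 5 FPKM and Bub1 by the restriction on status.

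**Figure D1:**
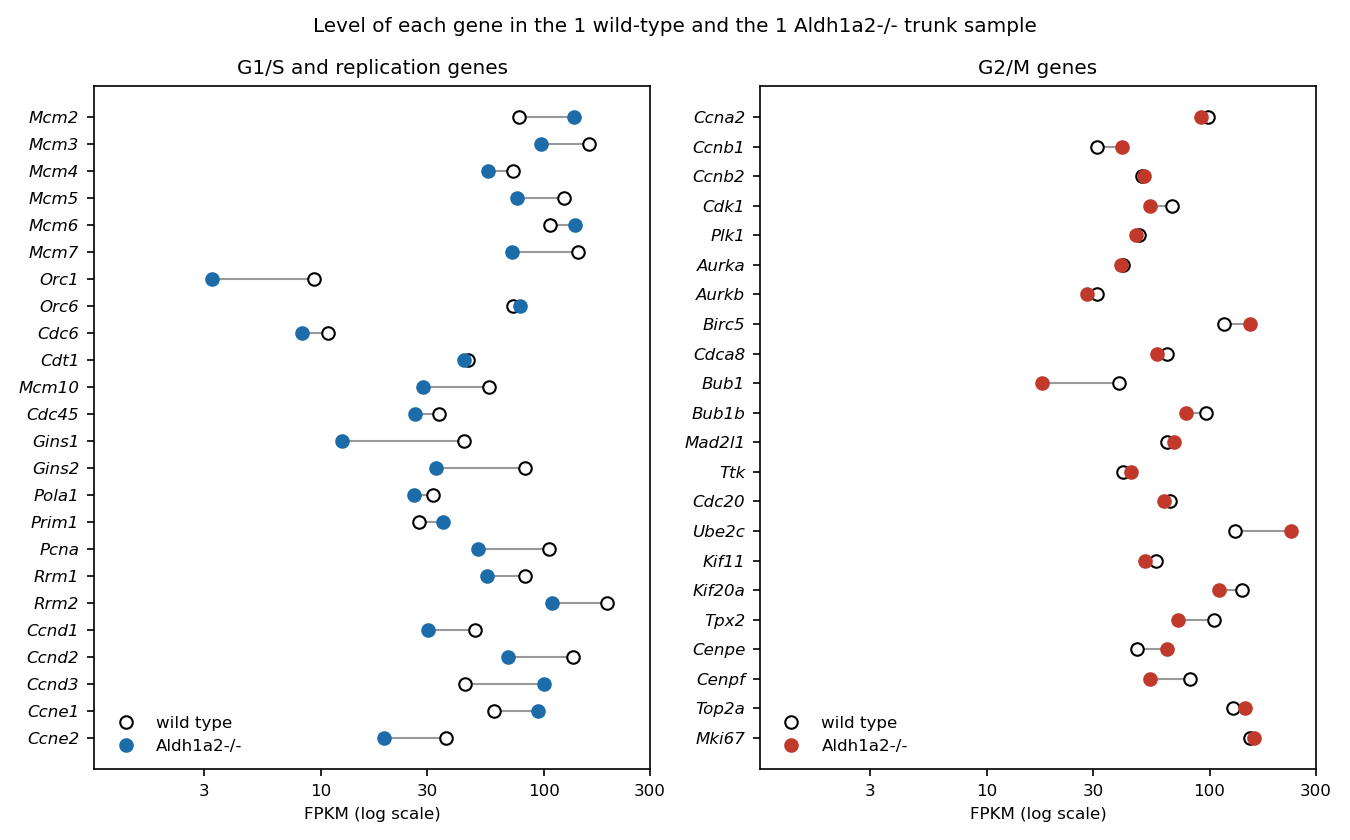
Level of each gene in FPKM on a log axis, with an open circle for the wild-type sample and a filled circle for the Aldh1a2-/- sample (1 sample each, so there are no error bars). In the G1/S panel the filled circle lies to the left of the open one for 18 of 24 genes, and in the G2/M panel most pairs lie close together, with Bub1 the widest apart at 39.2 and 17.8 FPKM.

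The 6 subunits of the replicative helicase form 1 ring, and their transcripts did not move as 1 group. Mcm7 stood at 142 FPKM in the wild-type trunk against 72.3 FPKM in Aldh1a2-/-, a log2 ratio of -0.97 (chromosome 5, 138164583 to 138172422, minus strand). It was the only subunit past the cutoffs. Mcm3 was at 159 and 96.9 FPKM, a log2 ratio of -0.72. Mcm5 was at 123 and 75.6 FPKM, a log2 ratio of -0.70. Mcm4 was at 72.7 and 56.3 FPKM, a log2 ratio of -0.37. These 4 subunits had less transcript in Aldh1a2-/- and the remaining pair had more. Mcm2 was at 77.3 and 137 FPKM, a log2 ratio of 0.83, just inside the upper cutoff and beyond it on the TPM scale. Mcm6 was at 107 and 139 FPKM, a log2 ratio of 0.37. From Mcm7 to Mcm2 the log2 ratios of the ring spanned 1.80. In wild type Mcm3 was the most abundant subunit per length and in Aldh1a2-/- it was Mcm6.

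Origin licensing factors that load this ring included the lowest transcripts of the set. Orc1, the large subunit of the origin recognition complex, stood at 9.35 FPKM in the wild-type trunk against 3.27 FPKM in Aldh1a2-/-, a log2 ratio of -1.52 (chromosome 4, 108579423 to 108614833). Cdc6, the ATPase that works with this complex, was at 10.8 and 8.26 FPKM, a log2 ratio of -0.38. When measured genes are split by level into 5 groups of equal size, both fall in the second lowest group, in which 57.1% of genes were past a cutoff. Orc6, the smallest subunit of the complex, was at 72.9 and 78.5 FPKM, a log2 ratio of 0.11. Cdt1, which brings the helicase to the origin, was at 45.6 and 43.9 FPKM, a log2 ratio of -0.05. Of the 4 licensing genes, Orc1 alone was past a cutoff, and Orc6 and Cdt1 differed little between the samples.

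The genes of helicase activation had the lowest median log2 ratio among the roles of the 46 genes, -1.16, with 3 of 4 lower. Gins1, a subunit of the GINS complex that travels with the helicase at the fork, stood at 44.0 FPKM in the wild-type trunk against 12.4 FPKM in Aldh1a2-/-, and its log2 ratio of -1.82 was the lowest of all 46 genes (chromosome 2, 150905400 to 150931280). Gins2, another GINS subunit, was at 82.6 and 32.9 FPKM, a log2 ratio of -1.33 (chromosome 8, 120578633 to 120589304, minus strand). Of the annotated exonic bases of Gins2, 67.3% overlap those of Gse1 on the opposite strand, and Gse1 was at 16.3 and 13.2 FPKM. Mcm10, which helps to switch the loaded helicase on, was at 57.1 and 28.7 FPKM, a log2 ratio of -0.99 (chromosome 2, 4989714 to 5012791, minus strand). Cdc45, a fixed part of the active helicase, was at 33.8 and 26.4 FPKM, a log2 ratio of -0.36. Together the 4 genes summed to 217 FPKM in the wild-type trunk against 100.5 FPKM in Aldh1a2-/-.

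Among the genes of DNA synthesis, Pcna, the sliding clamp, stood at 106.0 FPKM in the wild-type trunk against 50.8 FPKM in Aldh1a2-/-, a log2 ratio of -1.06 (chromosome 2, 132249162 to 132253314, minus strand). Pola1, the catalytic subunit of the polymerase that begins each strand, was at 31.8 and 26.2 FPKM, a log2 ratio of -0.28. Prim1, the primase that makes the RNA primers for it, was at 27.6 and 35.4 FPKM, a log2 ratio of 0.36. The clamp was thus past the cutoff and the polymerase and primase, which work as 1 enzyme, lay on either side of 0. Both subunits of ribonucleotide reductase, which makes deoxynucleotides, had less transcript in Aldh1a2-/- without passing the cutoff. Rrm1, its large subunit, was at 82.3 and 55.5 FPKM, a log2 ratio of -0.57. Rrm2, its S phase subunit, was at 192 and 109 FPKM, a log2 ratio of -0.81, and had the highest wild-type level of the 46 genes.

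The G1 cyclins, which activate the kinases that release E2F from the pocket proteins, pointed in both directions. Ccnd1, cyclin D1, stood at 49.4 FPKM in the wild-type trunk against 30.2 FPKM in Aldh1a2-/-, a log2 ratio of -0.71. Ccnd2, cyclin D2, was at 136 and 69.3 FPKM, a log2 ratio of -0.97 (chromosome 6, 127125162 to 127152193, minus strand). Ccnd3, cyclin D3, was at 44.4 and 100.3 FPKM, a log2 ratio of 1.18 (chromosome 17, 47505051 to 47599691). Ccnd3 was the only member called higher, and it took the place of Ccnd2 as the most abundant D-type cyclin transcript per length. The E-type cyclins, which act with Cdk2 at the entry into S phase, diverged as well. Ccne1 was at 59.8 and 94.7 FPKM, a log2 ratio of 0.66. Ccne2 was at 36.6 and 19.2 FPKM, a log2 ratio of -0.93 (chromosome 4, 11191351 to 11204779). The log2 ratios of the 5 G1 cyclins spanned 2.15, the widest span among the roles of the 46 genes, while their summed level was 326 FPKM in the wild-type trunk against 314 FPKM in Aldh1a2-/-. Primitive red blood cell and visceral endoderm markers were higher in the same sample as Ccnd3, and their part in its level was not tested.

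**Figure D2:**
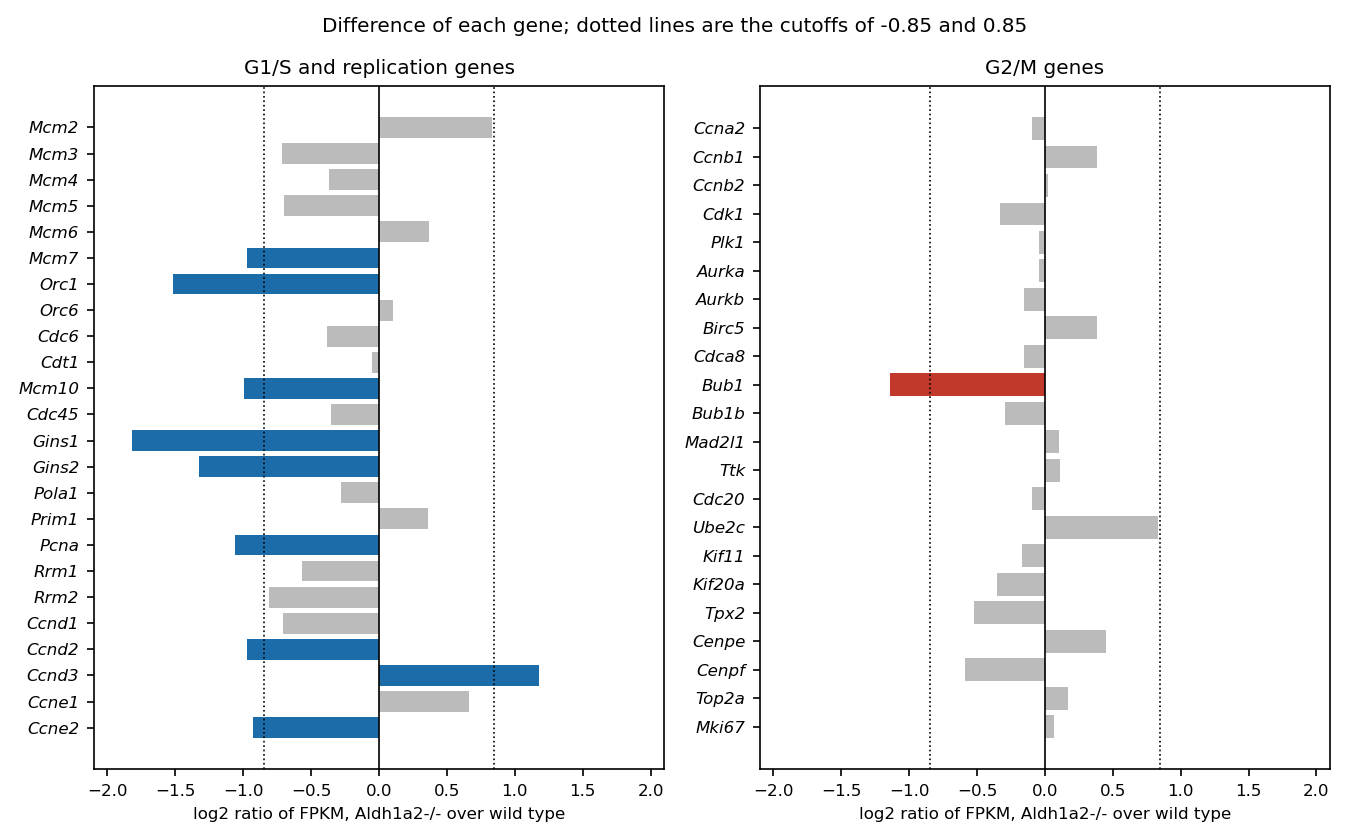
Log2 ratio of FPKM, Aldh1a2-/- over wild type, for each gene, with dotted lines at the cutoffs of -0.85 and 0.85 and colour on the bars past them. The panel of G1/S genes has 8 coloured bars to the left and 1 to the right (Ccnd3 at 1.18), and the panel of G2/M genes has 1 (Bub1 at -1.14).

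Turning to the G2/M genes, the cyclins and kinases that drive mitosis were close to their wild-type levels. Ccna2, cyclin A2, stood at 98.0 FPKM in the wild-type trunk against 91.8 FPKM in Aldh1a2-/-, a log2 ratio of -0.09. Ccnb1, cyclin B1, was at 31.1 and 40.5 FPKM, a log2 ratio of 0.38. Ccnb2, cyclin B2, was at 49.7 and 50.6 FPKM, a log2 ratio of 0.03. Their kinase Cdk1 was the lowest of the 4 by this measure, at 67.9 and 54.01 FPKM, a log2 ratio of -0.33. The mitotic kinases Plk1, Aurka and Aurkb, which act at centrosomes, spindle poles and centromeres, spanned only 0.11 in log2 ratio. Plk1 was at 48.1 and 46.7 FPKM, a log2 ratio of -0.05. Aurka was at 41.0 and 39.9 FPKM, a log2 ratio of -0.04. Aurkb was at 31.4 and 28.2 FPKM, a log2 ratio of -0.16. The partners of Aurkb in the chromosomal passenger complex lay on either side of 0. Birc5 (survivin) was at 116 and 152 FPKM, a log2 ratio of 0.38. Cdca8 (borealin) was at 64.4 and 58.0 FPKM, a log2 ratio of -0.15.

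The spindle checkpoint delays anaphase until every chromosome is attached, and it held the only G2/M gene past a cutoff. Bub1, a checkpoint kinase at kinetochores, stood at 39.2 FPKM in the wild-type trunk against 17.8 FPKM in Aldh1a2-/-, a log2 ratio of -1.14 (chromosome 2, 127801122 to 127831865, minus strand). Its row carries the status FAIL of the authors' own comparison, as does that of Tpx2. The other checkpoint genes were well inside the cutoffs. Bub1b, which encodes the checkpoint protein BubR1, was at 96.5 and 78.5 FPKM, a log2 ratio of -0.30. Mad2l1, which holds back the anaphase-promoting complex, was at 64.6 and 69.4 FPKM, a log2 ratio of 0.10. Ttk (Mps1), the kinase that starts the signal, was at 40.9 and 44.3 FPKM, a log2 ratio of 0.11. Cdc20, the activator on which this signal acts, was at 66.7 and 62.3 FPKM, a log2 ratio of -0.10. Ube2c, the ubiquitin-conjugating enzyme of the anaphase-promoting complex, was the exception on the upper side, at 129.7 and 231 FPKM, a log2 ratio of 0.84. This was 0.014 short of the cutoff and past it on the TPM scale, and 231 FPKM was the highest level of any of the 46 genes in Aldh1a2-/-.

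None of the 5 members grouped here as spindle and kinetochore genes passed a cutoff, and their log2 ratios spanned 1.04. Kif11, the motor that pushes spindle poles apart, stood at 57.3 FPKM in the wild-type trunk against 51.1 FPKM in Aldh1a2-/-, a log2 ratio of -0.17. Kif20a, a motor of cytokinesis, was at 140.4 and 110.0 FPKM, a log2 ratio of -0.35. Tpx2, a spindle assembly factor that activates Aurka, was at 104 and 72.6 FPKM, a log2 ratio of -0.52. The pair of large kinetochore proteins went opposite ways. Cenpe, a kinetochore motor, was at 47.1 and 64.2 FPKM, a log2 ratio of 0.45. Cenpf was at 81.6 and 54.2 FPKM, a log2 ratio of -0.59. The general markers of proliferation differed little. Top2a, the topoisomerase that untangles chromosomes, was at 128 and 144 FPKM, a log2 ratio of 0.17. Mki67, the gene of the Ki-67 antigen, was at 152 and 159 FPKM, a log2 ratio of 0.07.

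The members nearest a cutoff were separated by small steps, so the counts rest on a few genes. Just inside lay Ube2c (0.84), Mcm2 (0.83), Rrm2 (-0.81), Mcm3 (-0.72) and Ccnd1 (-0.71), and just outside lay Ccne2 (-0.93), Ccnd2 (-0.97), Mcm7 (-0.97) and Mcm10 (-0.99). On the TPM scale the last 4 fell inside the cutoffs and Mcm2 and Ube2c passed the upper one. With cutoffs of -1 and 1 the same 4 genes were no longer called, which left 4 lower and 1 higher among the G1/S genes.

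The share of genes past the cutoffs depends on level, and the members are abundant. Measured genes were divided into 5 equal groups by the mean of log2 FPKM over both samples, and 33 of the 46 members fell in the highest group, 11 in the next and 2 (Orc1 and Cdc6) in the second lowest. In the highest group 20.8% of all genes were past a cutoff, 8.05% lower and 12.7% higher. Of the 15 G1/S genes in this group, 4 were lower and 1 was higher, and none of the 18 G2/M genes in it was past either cutoff. In the next group 36.0% of all genes were past a cutoff and 16.0% were lower. There 3 of 7 G1/S genes were lower and 1 of 4 G2/M genes was, again Bub1. Within 0.5 on either side of 0 lay 18 of 22 G2/M genes and 8 of 24 G1/S genes, beside 36.1% of all measured genes and 57.4% of those in the highest group. With 1 sample per genotype, the difference of 0.56 between the medians of the 2 phases could not be tested.

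**Figure D3:**
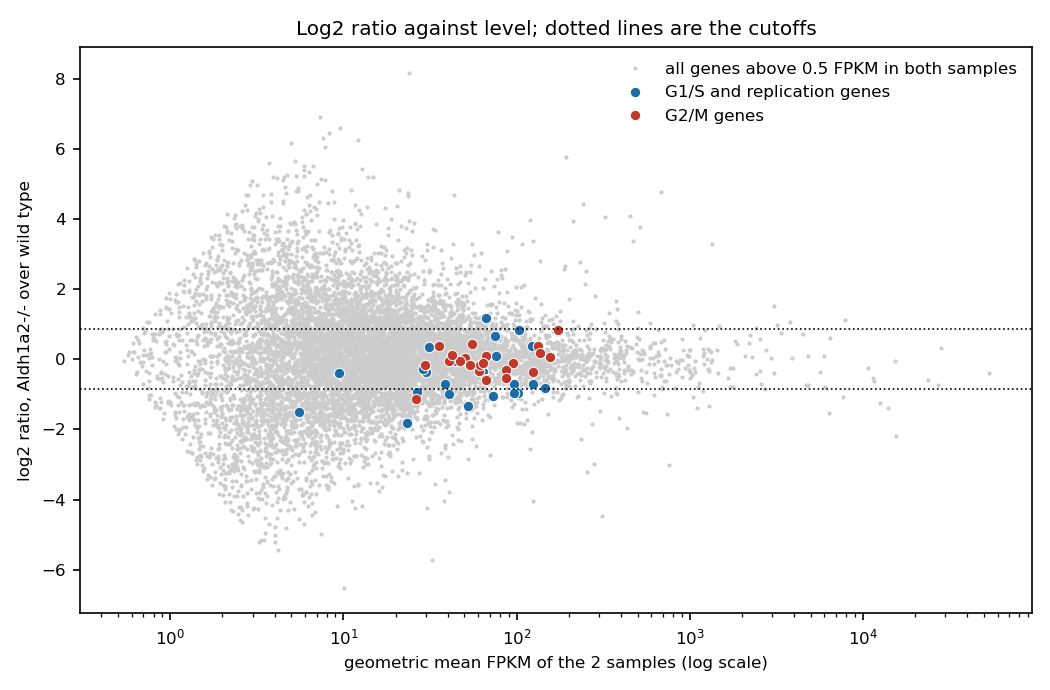
Log2 ratio, Aldh1a2-/- over wild type, against the geometric mean FPKM of both samples on a log axis, for the 9506 measured genes (grey) and the 46 members (blue for G1/S, red for G2/M), with dotted lines at -0.85 and 0.85. The grey cloud narrows toward high levels, where 33 of the 46 members lie, and the red points sit near 0 while more of the blue points lie below it.

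Overlapping annotation touches 11 of the 46 members, whose exonic bases are shared in part with another row of the table. The methods of the study name a stranded library kit. Whether the counting used strand is not given in the sources used here, so reads of such pairs may not be told apart. Besides Gins2, the share was 29.3% for Kif20a with Cdc23, itself at 43.0 and 21.2 FPKM. It was 22.8% for Ube2c with Tnnc2, listed at 0 in both samples, and 17.4% for Ccne2 with Ints8, at 26.8 and 16.9 FPKM. For Mcm7 12.6% of the exonic bases lie in other rows. Among them were Cops6 (151 and 96.5 FPKM, log2 ratio -0.65) and Ap4m1 (15.2 and 1.17 FPKM, log2 ratio -3.71). Ccna2 shares 12.5% with Exosc9 (109 and 50.5 FPKM, log2 ratio -1.11), and Orc6 shares 6.93% with Vps35 (63.7 and 153.8 FPKM, log2 ratio 1.27).

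Lists of further genes of the same processes place the members in context. Of 44 other replication genes 43 were measured, with a median log2 ratio of -0.16, 6 lower and 8 higher. Past either cutoff were 32.6% of them, beside 45.6% of all measured genes. Pole2, the second subunit of the leading strand polymerase, stood at 3.99 FPKM in the wild-type trunk against 37.9 FPKM in Aldh1a2-/-, a log2 ratio of 3.24. Rpa3, the smallest subunit of the single-strand binding protein, was at 15.4 and 3.04 FPKM, a log2 ratio of -2.34. The next 3 genes of this list were higher in Aldh1a2-/-. Rrm2b, the p53-inducible partner of Rrm1, was at 0.546 and 2.62 FPKM, a log2 ratio of 2.26. Its wild-type level was just above the floor, at about 6.4 estimated fragments, with a counting error of 0.62 on the log2 ratio. With a pseudocount of 1 the log2 ratio of Rrm2b was 1.23. Tk1, thymidine kinase, was at 6.44 and 27.6 FPKM, a log2 ratio of 2.099. Dbf4, the activator of the Cdc7 kinase that fires origins, was at 22.0 and 74.96 FPKM, a log2 ratio of 1.77. Gins3, which joins Gins1 and Gins2 in the GINS complex, stood at 1.95 FPKM in the wild-type trunk but was listed at 0 in Aldh1a2-/-.

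Of 50 symbols listed for other mitosis genes 49 were found in the table, Sgol1 but not Sgo1, and 48 were measured. The measured genes had a median log2 ratio of -0.25, with 10 lower and 4 higher. Past either cutoff were 29.2% of them, again beside 45.6% of all measured genes. Pttg1, securin, which guards the protease that splits sister chromatids, stood at 34.2 FPKM in the wild-type trunk against 6.74 FPKM in Aldh1a2-/-, a log2 ratio of -2.34. Pkmyt1, a kinase that restrains Cdk1, was at 9.93 and 2.39 FPKM, a log2 ratio of -2.06. Ect2, the exchange factor of cytokinesis, was at 22.2 and 6.03 FPKM, a log2 ratio of -1.88. All of these act on the timing of mitosis or its end, and the next pair act on chromosomes. Cenpn, a centromere protein, was at 29.4 and 8.18 FPKM, a log2 ratio of -1.85. Kif2c, a microtubule-shortening motor at centromeres, was at 32.9 and 11.3 FPKM, a log2 ratio of -1.54. Cdc25b, a phosphatase that activates Cdk1, went the other way, at 10.5 and 26.7 FPKM, a log2 ratio of 1.35. Kif18a stood at 3.54 FPKM in the wild-type trunk but was listed at 0 in Aldh1a2-/-.

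These lists did not repeat the contrast between the 2 phases. The median of the other replication genes was nearer to 0 than that of the other mitosis genes. With the members added, 67 measured replication and G1/S genes had a median of -0.25, with 14 lower and 9 higher (34.3% past a cutoff). The 70 measured mitosis genes had a median of -0.16, with 11 lower and 4 higher (21.4% past a cutoff). The difference between the phases thus belongs to the 46 genes as chosen and was much smaller over the wider lists.

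Of 24 cell cycle control genes 19 were measured, with a median log2 ratio of -0.20, 5 lower and 1 higher. Those past either cutoff were 31.6%, beside 45.6% of all measured genes. Chek1, the checkpoint kinase of S and G2 phases, stood at 18.3 FPKM in the wild-type trunk against 3.68 FPKM in Aldh1a2-/-, a log2 ratio of -2.31. Cdk2, the kinase partner of the E-type cyclins, was at 25.1 and 6.49 FPKM, a log2 ratio of -1.96. Cdkn2d, an inhibitor of the cyclin D kinases, was at 5.68 and 1.71 FPKM, a log2 ratio of -1.73. Of the other kinases of the DNA damage response in this list, Atm and Chek2 were lower and Atr, at 12.2 and 8.65 FPKM, was inside the cutoff with a log2 ratio of -0.50. Atm was at 14.97 and 5.28 FPKM, a log2 ratio of -1.50. Chek2 was at 7.73 and 3.76 FPKM, a log2 ratio of -1.04. Cdkn1c (p57), a maternally expressed inhibitor of cyclin-dependent kinases, was the only gene of this list called higher, at 59.7 and 159.7 FPKM, a log2 ratio of 1.42. Cdk6 stood at 13.4 FPKM in the wild-type trunk but was listed at 0 in Aldh1a2-/-, whereas Cdkn2c was listed at 0 in wild type and at 0.628 FPKM in Aldh1a2-/-. All 8 E2F factors were inside the cutoffs, from -0.35 to 0.52. Rb1, chosen for mention after its values were seen, was listed at 0 in both samples although most cells use it, so a 0 in this table is not read as absence.

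**Figure D4:**
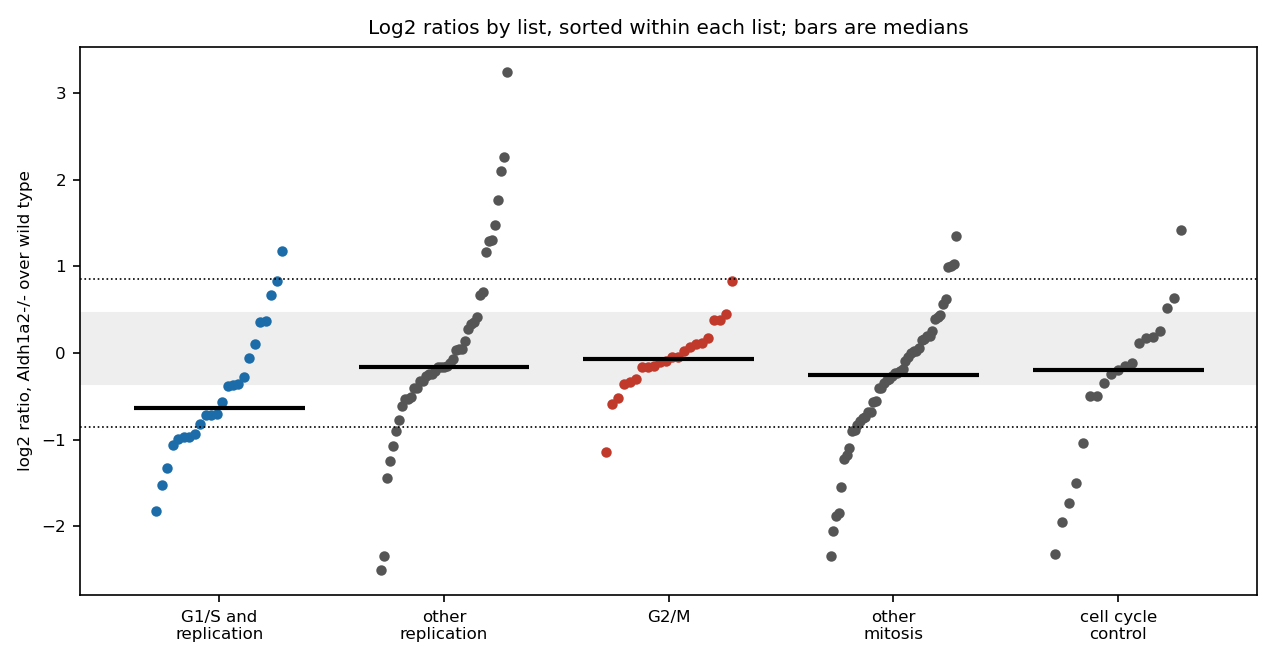
Log2 ratio, Aldh1a2-/- over wild type, of every measured gene of 5 lists, sorted within each list, with a black bar at the median, dotted lines at -0.85 and 0.85, and a grey band for the middle 50% of genes in the highest of 5 groups by level. The medians read -0.63, -0.16, -0.07, -0.25 and -0.20 from left to right, and most G2/M genes lie in the band.

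The promoters of the members are shown because their motifs separate the 2 phases. The choice by name used no motif, but many genes of each phase are known E2F or MuvB targets. The separation is therefore not independent of the choice. Windows from 250 bases before to 50 bases after the start of transcription were taken from RefSeq on GRCm38.p6, where 18 of 24 G1/S and 18 of 22 G2/M genes have an entry. The members not matched were Ccnd1, Ccnd2, Ccne2, Gins1, Gins2 and Mcm4 of the first set and Aurkb, Ccna2, Kif20a and Tpx2 of the second. Both strands were searched for E2F letters (TTTCCCGC, TTTGGCGC, TTTCGCGC or TTTGCCGC), the cell cycle genes homology region or CHR (TTTGAA) read by MuvB complexes, its variant TTTAAA, and the CCAAT box bound by NF-Y. Matches of different motifs overlapped at 2 places in the members. In the stretches printed here, 5′ to 3′ on the strand of the gene, capitals mark E2F letters, TTTGAA and CCAAT or their reverse complements. The first set are G1/S promoters with E2F letters, given for the helicase subunits Mcm5, Mcm6 and Mcm7, the origin subunit Orc1 and the polymerase subunit Pola1, with Pcna as a lower gene whose window holds CCAAT alone.
Mcm5: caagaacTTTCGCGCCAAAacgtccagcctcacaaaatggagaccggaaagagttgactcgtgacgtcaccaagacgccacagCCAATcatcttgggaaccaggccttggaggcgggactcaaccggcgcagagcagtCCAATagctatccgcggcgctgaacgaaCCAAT
Mcm6: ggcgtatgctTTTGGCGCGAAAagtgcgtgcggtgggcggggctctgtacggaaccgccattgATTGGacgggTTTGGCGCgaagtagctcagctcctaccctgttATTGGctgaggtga
Mcm7: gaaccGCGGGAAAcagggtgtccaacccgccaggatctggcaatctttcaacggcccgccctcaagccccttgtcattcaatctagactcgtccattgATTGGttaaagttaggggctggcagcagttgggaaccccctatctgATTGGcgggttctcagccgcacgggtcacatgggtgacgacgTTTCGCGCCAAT
Orc1: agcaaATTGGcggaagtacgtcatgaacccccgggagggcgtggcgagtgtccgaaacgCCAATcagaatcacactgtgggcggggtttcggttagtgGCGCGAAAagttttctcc
Pola1: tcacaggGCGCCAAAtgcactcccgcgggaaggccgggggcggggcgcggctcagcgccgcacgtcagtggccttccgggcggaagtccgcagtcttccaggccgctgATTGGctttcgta
Pcna: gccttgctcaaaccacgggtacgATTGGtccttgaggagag

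The stretches of Mcm5 (chr8:75109349-75109519) and Orc1 (chr4:108579329-108579444) are from the plus strand and those of Mcm6 (chr1:128359706-128359825), Mcm7 (chr5:138171856-138172053), Pola1 (chrX:93632180-93632300) and Pcna (chr2:132253250-132253290) from the minus strand. Mcm6, with 3 E2F matches of which the first 2 overlap, had a log2 ratio of 0.37 and was the only G1/S gene with E2F letters above 0. Mcm5, Mcm7, Orc1 and Pola1 had -0.70, -0.97, -1.52 and -0.28. The G1/S genes with E2F letters that are not printed were also below 0, namely Mcm3 (-0.72), Cdc6 (-0.38) and Cdt1 (-0.05).

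The second set are G2/M promoters with the CHR, which in these genes lies close to CCAAT boxes, and Bub1 is set beside them as the G2/M gene past the cutoff, whose window holds CCAAT without TTTGAA.
Cdk1: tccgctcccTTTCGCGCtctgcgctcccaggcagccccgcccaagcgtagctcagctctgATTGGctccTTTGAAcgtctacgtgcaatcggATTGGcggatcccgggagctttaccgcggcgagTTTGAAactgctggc
Ccnb2: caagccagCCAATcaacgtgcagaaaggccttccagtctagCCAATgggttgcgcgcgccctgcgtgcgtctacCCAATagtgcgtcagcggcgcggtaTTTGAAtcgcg
Cdc20: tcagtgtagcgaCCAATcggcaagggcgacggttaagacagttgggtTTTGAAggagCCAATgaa
Ube2c: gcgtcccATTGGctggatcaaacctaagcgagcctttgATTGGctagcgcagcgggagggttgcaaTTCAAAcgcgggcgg
Top2a: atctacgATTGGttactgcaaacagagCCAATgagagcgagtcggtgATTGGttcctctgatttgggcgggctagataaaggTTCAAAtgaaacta
Kif11: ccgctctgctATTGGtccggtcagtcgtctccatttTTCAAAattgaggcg
Mki67: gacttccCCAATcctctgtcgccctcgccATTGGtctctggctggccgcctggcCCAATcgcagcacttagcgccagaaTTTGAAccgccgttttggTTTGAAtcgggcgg
Bub1: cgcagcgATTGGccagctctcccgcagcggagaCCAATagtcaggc

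Those of Ube2c (chr2:164769834-164769914) and Kif11 (chr19:37376327-37376377) are from the plus strand. Those of Cdk1 (chr10:69352913-69353052), Ccnb2 (chr9:70421540-70421649), Cdc20 (chr4:118437344-118437408), Top2a (chr11:99024199-99024294), Mki67 (chr7:135716464-135716574) and Bub1 (chr2:127831889-127831934) are from the minus strand. Cdk1 is the only G2/M gene with an entry that also holds E2F letters.

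TTTGAA was found in 13 of 18 G2/M promoters (72.2%) and 2 of 18 G1/S promoters (11.1%), beside 13.6% of the promoters of measured genes and 20.2% of all promoters. E2F letters were found in 8 of 18 G1/S promoters (44.4%) and 1 of 18 G2/M promoters (5.56%), beside 5.37% of measured genes and 2.61% of all. The CCAAT box was common to both, in 15 G1/S and 16 G2/M promoters of 18, beside 43.0% of measured genes. TTTAAA was in 3 and 6 of 18, beside 10.8% of measured genes. Direct repeats of the kind bound by RA receptors, the DR5, DR2 and DR1 elements, are named for the bases between the repeats. Both repeats had to read AGGTCA exactly, with G allowed at the first base and T at the third. Such elements were in none of the 36 member windows, and in 0.115%, 0.311% and 0.263% of all promoters. At shares this low, none in 36 windows says little about the members. The study allowed up to 2 mismatches, within peaks of histone marks, so its search was unlike this one.

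Presence of the letters was then set beside the log2 ratio. The 8 G1/S genes with E2F letters had a median of -0.54, with 2 lower, and the 10 without had a median of -0.12, with 2 lower and 1 higher. The 6 G1/S genes without an entry include 4 of the 8 lower ones (Gins1, Gins2, Ccnd2 and Ccne2), and the median of the 18 with an entry was -0.37 beside -0.63 for all 24. Of the 13 G2/M genes with TTTGAA none was past a cutoff, and of the 5 without it 1 was lower, Bub1. Over all measured genes with a promoter entry, 45.8% of the 389 with E2F letters were past a cutoff, at a median of -0.10, and 45.6% of those with TTTGAA, at a median of -0.04. Genes that hold either motif were thus past the cutoffs about as often as measured genes in general.

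**Figure D5:**
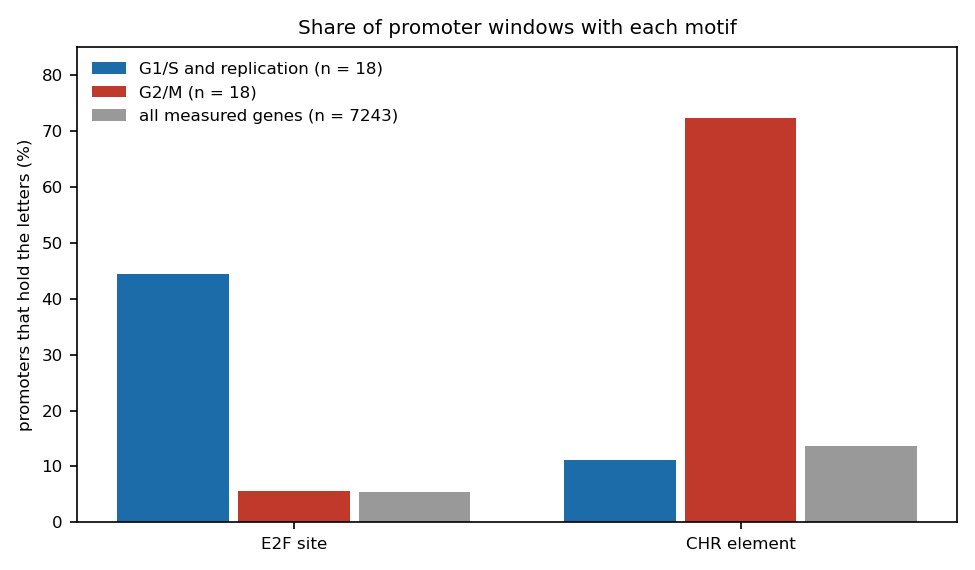
Percent of promoter windows that hold E2F letters (left) and TTTGAA, the CHR element (right), for 18 G1/S genes (blue), 18 G2/M genes (red) and 7243 measured genes (grey), on an axis that starts at 0. E2F letters stand at 44.4% in the G1/S genes against 5.56% in the G2/M genes, and TTTGAA stands at 72.2% in the G2/M genes against 11.1% in the G1/S genes.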

How the data were processed

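The authors deposited 1 table with an FPKM value for each gene in the wild-type and the Aldh1a2-/- sample. Per the submitters' processing notes, the tools were STAR, Cufflinks and Cuffdiff on mm10, with no version given, and the methods of the study name TopHat. Whether replicates were pooled is not given in the sources used here. The table also holds the fold change, p-value and q-value of the authors' own comparison, which were not used. Log2 ratios were computed from FPKM above 0.5 in both samples with cutoffs of -0.85 and 0.85, without scaling. The TPM scale divides each sample's FPKM by their sum, 846496 and 759577. The members and all gene lists were chosen with earlier results of these data known. All 46 members are given. From each other list of the pathway those past a cutoff, at most 6 by size of the log2 ratio, and those listed at 0 in 1 sample only are named. Some genes that these rules name are not reported here. Alternatives were floors of 0.1, 1 and 5 FPKM, pseudocounts of 0.5 and 1, a floor in either sample with a pseudocount of 0.5, upper quartile and TPM scaling, centring on the median of all genes, rows of status OK, and cutoffs of -1 and 1. Of the deposited columns, those of other samples numbered 0. Promoters were from RefSeq (GRCm38.p6, 27025 genes). Computation was in Python 3.11.15 with pandas 2.3.3 and numpy 2.4.6, figures were drawn in matplotlib 3.10.9, and the scripts were tested on simulated data.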

Additional observations from a re-analysis of the deposited data

How the results depend on the processing

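Of 11 alternative settings, those that moved a median of the member genes by more than 0.1 in log2 or a count by more than 1.5 times were the 2 scalings, the stricter cutoffs and the restriction to rows of status OK. The median log2 ratio of the G1/S genes, -0.63 as deposited, was -0.48 on the TPM scale and -0.74 with upper quartile scaling, and that of the G2/M genes, -0.07 as deposited, was 0.087 and -0.17. The median of all measured genes shifted by 0.16 and -0.10 under these scalings, so that over all genes 1805 lower calls stood beside 2610 higher ones for TPM and 2287 beside 2024 for the upper quartile. With cutoffs of -1 and 1 the count of G1/S genes past a cutoff was 5 in place of 9. A floor of 5 FPKM, which leaves out Orc1, gave a G1/S count of 8 and a median of -0.57. The count of G2/M genes past a cutoff was 2 on the TPM scale (Bub1 and Ube2c) and 0 among the 20 genes of status OK, since Bub1 has the status FAIL. Of the 10 members past a cutoff, 6 stayed past it in every setting that gave a value, though the floors and the status restriction cannot change a ratio. Mcm7, Mcm10, Ccnd2 and Ccne2 fell inside it on the TPM scale and with cutoffs of -1 and 1, Mcm2 passed it on the TPM scale and Rrm2 with upper quartile scaling. The log2 ratio of no member past a cutoff changed sign. No paired analysis was possible because each genotype has 1 sample, and for the same reason no replicate could be left out. By the estimate of depth given above, Orc1 had the fewest fragments of any member in Aldh1a2-/-, about 286.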
